A study of Mus musculus with 16 samples.

Results

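The response to Klebsiella pneumonia that macrophages of TLR3-KO and WT mice have in common was measured by comparing all 8 injured libraries with all 8 control libraries, with genotype as a covariate. All 16 libraries of the series entered the comparison. A gene was counted as shared where it passed an adjusted p of 0.05, lay outside the X and Y chromosomes and had a fold change of the same sign in both genotypes. Of 12455 genes tested, 1.95% passed on any chromosome and 235 met the whole rule, 143 of them higher and 92 lower in injured libraries. The same-sign condition removed 0 of the genes that passed outside X and Y, so it is no separate support for sharing. The cells were macrophages from bronchoalveolar lavage fluid, the saline wash of the airspaces, and their polyadenylated RNA was sequenced. The 4 groups held 4 libraries each: TLR3-KO injured, WT injured, TLR3-KO control and WT control. Injured mice were sampled after pneumonia caused by Klebsiella pneumoniae, prepared at 500 CFU per 30 µl and given by deep hypopharyngeal injection. Control libraries carry the treatment label none, while the protocol names saline as the alternative inoculum. TLR3-KO mice lack Toll-like receptor 3, a sensor of double-stranded RNA in endosomes. The day of sampling, the strain background and the age of the mice, and whether each library came from a single mouse, are not stated in the labels. The p-values therefore rest on differences among libraries of a group, which may be technical in part.

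Alveolar macrophages clear inhaled bacteria and surfactant from the airspaces. Bacterial products and cytokines made during pneumonia switch on interferon-stimulated genes, whose products restrict viruses and intracellular microbes, and draw neutrophils and monocytes into the airspace. Cholesterol is made from acetyl-CoA through the mevalonate pathway, whose genes share a sterol-regulated transcription factor, SREBP2. REV-ERB alpha, encoded by Nr1d1, is a repressor in the circadian clock and in macrophages.

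The libraries held between 29667102 and 59640251 counts. Tlr3 lay at 0.353 to 0.677 CPM (counts scaled to the library total) in TLR3-KO injured libraries and 0.274 to 0.717 CPM in TLR3-KO control libraries, against 2.35 to 4.27 CPM in WT injured libraries and 2.18 to 4.53 CPM in WT control libraries. Xist, the RNA of the inactive X chromosome of female cells, was found in TLR3-KO control libraries 1 (42.3 CPM), 2 (31.6 CPM) and 3 (20.3 CPM); the remaining 13 had 0.23 CPM or less. The sum of 4 Y-linked genes was 0.758, 1.16 and 23.2 CPM in these 3 libraries and 163 to 235 CPM in the other 13, so library 3 held both kinds of RNA. In TLR3-KO mice these signs of sex thus differ between injured libraries and 3 of the 4 controls. The summed level of 29 alveolar macrophage markers was 39800 to 49000 CPM in injured libraries and 36200 to 46700 CPM in control libraries, and 0 of the 29 passed the test in edgeR, with 3 higher and 4 lower at an unadjusted p below 0.05 and 1 higher and 2 lower called by DESeq2. Chi3l3, a chitinase-like protein of these cells, averaged 18600 ± 2230 CPM after pneumonia and 17800 ± 2360 CPM in controls (SD, 8 libraries each). Control libraries of the same replicate number in the 2 genotypes deviated together, with correlations across genes of 0.62 to 0.66, and no label gives a batch. Controls also split by number on the first principal component, the main axis of variation between libraries (34.9% of variance). Controls 1 and 2 lay at -24.8 and -22.3 in WT and -9.8 and -15.5 in TLR3-KO mice. Controls 3 and 4 lay at 27.6 and 17 in WT and 39.8 and 36.1 in TLR3-KO mice. Injured libraries lay between -20.4 and 12.6. In the fits below that leave libraries out, shared means called outside X and Y. The sign in each genotype was not checked there. Leaving out TLR3-KO controls 1 to 3, which removes the libraries with Xist, gave 11 shared genes. Leaving out single libraries gave 102 shared genes without TLR3-KO injured 4, 108 without TLR3-KO injured 1, 122 without WT injured 3, 127 without WT control 3, 132 without TLR3-KO injured 3, 135 without TLR3-KO control 3, 144 without TLR3-KO control 4 and 153 without TLR3-KO injured 2. All 235 genes kept their direction in every alternative in which they were fitted. The alternatives reuse the libraries in which these genes were chosen, so a kept direction is no independent support.

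The promoters of 3 interferon-stimulated genes that rose together are shown because they carry the core of the interferon response element (GAAA, NN, GAAA without gaps), searched on both strands. Capitals mark the core, here read as its reverse complement. Each runs from 250 bases before to 50 bases after the start site, from RefSeq, build GRCm38.p6. Ifit1 (chr19:34640639-34640938, plus strand) has the core 104 and 85 bases before the start, Ifit3 (chr19:34583279-34583578, plus strand) 156 and 122 bases before it, and Rsad2 (chr12:26456403-26456702, minus strand) 120 bases before it.
Ifit1: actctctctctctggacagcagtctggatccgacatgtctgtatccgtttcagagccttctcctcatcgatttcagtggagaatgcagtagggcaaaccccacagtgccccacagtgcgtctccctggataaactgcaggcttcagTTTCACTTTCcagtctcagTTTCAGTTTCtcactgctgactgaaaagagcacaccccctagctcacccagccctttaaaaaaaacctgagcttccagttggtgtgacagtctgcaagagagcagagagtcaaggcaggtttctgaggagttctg
Ifit3: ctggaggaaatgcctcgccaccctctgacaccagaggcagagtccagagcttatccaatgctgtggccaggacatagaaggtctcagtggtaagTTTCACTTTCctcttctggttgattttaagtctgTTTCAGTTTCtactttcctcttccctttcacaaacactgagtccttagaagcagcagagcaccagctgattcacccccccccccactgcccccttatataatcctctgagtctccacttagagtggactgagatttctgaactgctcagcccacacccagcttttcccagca
Rsad2: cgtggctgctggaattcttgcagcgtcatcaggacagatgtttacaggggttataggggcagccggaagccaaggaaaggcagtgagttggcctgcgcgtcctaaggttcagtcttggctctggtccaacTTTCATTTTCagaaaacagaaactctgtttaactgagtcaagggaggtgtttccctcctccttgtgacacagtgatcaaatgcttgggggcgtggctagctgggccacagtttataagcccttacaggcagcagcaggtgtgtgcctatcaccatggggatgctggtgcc
The core was found in 3.44% of all 32851 promoters of the table. It was found in 17 of 156 promoters of the genes that rose (10.9%) and in 1 of 96 promoters of the genes that fell (1.04%). Among interferon-stimulated genes, 13 of the 27 with a promoter in the table had it, and so did 5 of the 12 called ones with a promoter. These shares are a description and show neither binding nor a cause.

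Interferon-stimulated genes rose in injured libraries. Of 38 tested, 16 passed the test and all 16 were higher, where 1.17% of all genes tested were called higher. The median log2 fold change of the 38 was 0.71, against 0 over all genes tested. Limma with voom called 8 of them higher, and without TLR3-KO controls 1 to 3 the count was 0. Without WT injured 3 it was 10. Fold changes, SE and adjusted p come from edgeR's quasi-likelihood test with Benjamini-Hochberg adjustment, injured over control. Ifit1, Ifit2 and Ifit3, which bind foreign RNA, had log2 fold changes of 2.52, 2.26 and 2.55. Oas2, Oas3 and Oasl2, of the oligoadenylate synthetase family, had 3.20, 2.26 and 2.73. Rsad2, the antiviral enzyme viperin, had 2.94, and Cmpk2, a mitochondrial nucleotide kinase, had 2.33. Usp18, a brake on interferon receptor signalling, had 2.26, and Irf7, a transcription factor of the interferon response, had 1.33.

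Rsad2 had 55.5, 5.56, 20.6 and 107 CPM in TLR3-KO injured libraries 1 to 4, against 2.51, 1.64, 2.15 and 9.31 CPM in TLR3-KO control libraries. It had 8.54, 43.1, 61 and 27.1 CPM in WT injured libraries, against 7.68, 7.58, 2.24 and 7.84 CPM in WT control libraries. TLR3-KO injured 2 and WT injured 1 were the lowest of their groups, and TLR3-KO injured 2 lay inside the range of its controls. The log2 fold change was 2.94 (SE 0.581, adjusted p = 0.0172 in edgeR).

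Oasl2 had 14.9, 2.96, 5.43 and 18.4 CPM in TLR3-KO injured libraries, against 0.782, 0.758, 1.71 and 1.52 CPM in TLR3-KO control libraries. In WT mice it had 2.28, 14, 17.7 and 9.37 CPM in injured libraries, against 2.26, 2.03, 0.738 and 2.52 CPM in control libraries. The TLR3-KO groups did not overlap, while WT injured 1 lay among the WT controls. Its log2 fold change was 2.73 (SE 0.439, edgeR adjusted p = 0.00899). Rtp4, a chaperone of membrane receptors, had the same lowest libraries, with 2.18 CPM in TLR3-KO injured 2 and 3.65 CPM in WT injured 1, and a log2 fold change of 2.59 (SE 0.434, edgeR adjusted p = 0.00928).

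Xaf1, Zbp1 and Ifi47 had smaller rises, and their 8 injured libraries all lay above the 8 control libraries. Zbp1, which senses left-handed nucleic acid, had 12.5, 8.25, 8.97 and 19.8 CPM in TLR3-KO injured libraries, against 5.88, 5.68, 3.39 and 3.33 CPM in TLR3-KO control libraries. It had 11.7, 14.5, 12.4 and 15 CPM in WT injured libraries, against 5.95, 6.83, 3.5 and 5.73 CPM in WT control libraries. Its log2 fold change was 1.26 (SE 0.208, edgeR adjusted p = 0.00928). Isg15, a ubiquitin-like protein, had a log2 fold change of 1.21 and did not pass (edgeR adjusted p = 0.137).

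Genes of the interferon gamma response rose as well, with 13 of 32 called higher, 0 called lower and a median log2 fold change of 0.98. The share called higher over all genes tested was 1.17%. The count of 13 was 0 without TLR3-KO controls 1 to 3, 6 without TLR3-KO injured 4, and 8 without WT control 3, WT injured 3 or TLR3-KO control 1, control 3, injured 1 or injured 3. Among guanylate-binding proteins, GTPases that attack microbe-containing compartments, Gbp3, Gbp4, Gbp6, Gbp7 and Gbp9 rose by 1.71, 3.34, 1.41, 1.01 and 2.40 on the log2 scale. Counts of such near-identical family members, and of Tgtp1 and Tgtp2, are uncertain because reads shared by members cannot be placed with certainty. Gbp7 had 31.9, 30.7, 32 and 32.6 CPM in TLR3-KO injured libraries, against 13.9, 21.3, 10.3 and 11.2 CPM in TLR3-KO control libraries. It had 21.9, 22.8, 32.2 and 34.4 CPM in WT injured libraries, against 14.8, 15.1, 7.93 and 16 CPM in WT control libraries. All 8 injured libraries lay above all 8 controls. Irf1, a transcription factor induced by interferon gamma, averaged 82.8 ± 13.5 CPM in injured libraries and 48.9 ± 11.4 CPM in controls (SD, 8 libraries each), a log2 fold change of 0.67. Serpina3g, an intracellular protease inhibitor, rose by 3.37 on the log2 scale (SE 0.529, edgeR adjusted p = 0.00899). Its level was low in controls, 0.127 to 0.301 CPM, and WT injured 1 (0.285 CPM) lay among the WT controls.

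**Figure D1:**
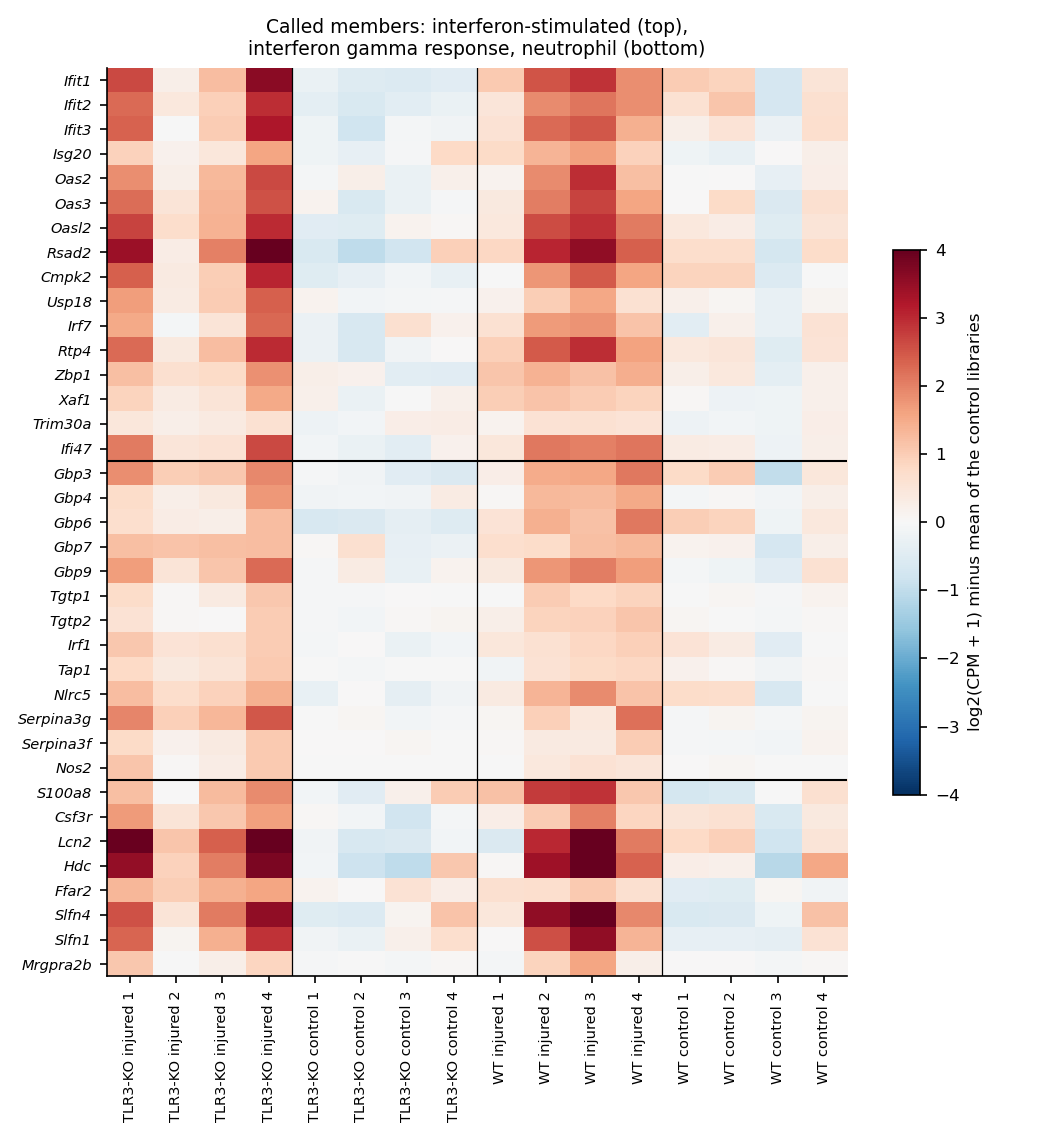
Called members of the interferon-stimulated list (top), the interferon gamma list (middle) and the neutrophil list (bottom) by library, as log2(CPM + 1) minus the mean of the 8 control libraries; red is higher and blue lower. TLR3-KO injured 2 and WT injured 1 are the palest injured columns in most rows.

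Genes typical of neutrophils rose in the same libraries. Of 22 neutrophil markers tested, 8 were called higher and 0 lower, with a median log2 fold change of 1.35. The share called higher over all genes tested was 1.17%. At an unadjusted p below 0.05 in edgeR, 15 of the 22 were higher and 1 lower. Cxcr1, a chemokine receptor outside this list, was called lower at -0.67. The count of 8 was 1 without TLR3-KO controls 1 to 3 and 1 in limma with voom. It was 3 without WT injured 3 or TLR3-KO injured 4, 4 without TLR3-KO injured 1 or control 3, and 5 without WT control 3 or TLR3-KO control 2. The 22 include Lcn2, S100a8 and Slfn4, which activated macrophages can also express. Summed over the list, levels were 707, 422, 534 and 846 CPM in TLR3-KO injured libraries, against 412, 333, 450 and 460 CPM in TLR3-KO control libraries. In WT mice they were 486, 776, 1090 and 447 CPM in injured libraries, against 368, 395, 347 and 409 CPM in control libraries. The groups overlapped only in the TLR3-KO libraries. Elane and Prtn3, proteases of neutrophil granules, were at 0 in all 16 libraries, and Camp, Ngp and Mpo did not exceed 0.387 CPM in any. These transcripts alone do not measure how many neutrophils were present. The part of neutrophil RNA in the rise of the interferon and antibacterial genes was not tested, and in these bulk libraries a change in cell number and a change in RNA per cell cannot be told apart.

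Chi3l1, a chitinase-like protein, had the highest log2 fold change of the genes above 5 CPM, 4.24 (SE 0.784, edgeR adjusted p = 0.0131). It had 34.3, 2.73, 11.2 and 41.6 CPM in TLR3-KO injured libraries, against 0.735, 0.274, 0.211 and 1.22 CPM in TLR3-KO control libraries. It had 0.207, 11, 26.2 and 5.97 CPM in WT injured libraries, against 0.788, 0.64, 0.295 and 2.27 CPM in WT control libraries. WT injured 1 lay below every WT control, while the other 7 injured libraries lay above all 8 controls.

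Lcn2 encodes lipocalin 2, which binds bacterial siderophores. Its level was 33, 3.72, 10.3 and 51.8 CPM in TLR3-KO injured libraries, against 0.972, 0.4, 0.464 and 1.01 CPM in TLR3-KO control libraries. In WT mice the level was 0.466, 16.7, 43.2 and 8.11 CPM in injured libraries, against 2.78, 3.24, 0.246 and 2.08 CPM in control libraries. WT injured 1 again lay among its controls, and the log2 fold change was 3.89 (SE 0.789, edgeR adjusted p = 0.0187). Hdc, which makes histamine, rose by 3.48 on the log2 scale, Slfn1 by 3.35 and Slfn4 by 2.79, and Mefv, the inflammasome protein pyrin, by 3.31. S100a8, a calcium-binding protein of myeloid cells, rose by 1.69, and S100a9, its partner, had 2.84 and did not pass (edgeR adjusted p = 0.104). With 1 library left out at a time, S100a8 kept its call in 4 of 16 fits, Mefv in 7 and Hdc in 12. Nos2, the inducible nitric oxide synthase, was called higher but lay at no more than 1.2 CPM in any library and at 0 in all 4 TLR3-KO controls. Of the 19 antibacterial genes tested, 4 were called higher and 1 lower, where the shares over all genes tested were 1.17% and 0.779%. The count of 4 was 2 without WT injured 3 and 0 without TLR3-KO controls 1 to 3, and the 1 lower call was kept in 3 of the 16 fits that leave out 1 library (WT control 4, WT injured 1 or WT injured 2). Lysozyme genes Lyz1 and Lyz2 had log2 fold changes of -0.06 and -0.08 and did not pass.

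Other genes that rose belonged to none of these lists. Asprv1, an aspartic protease, rose by 3.69 on the log2 scale, and Cass4, an adaptor of focal adhesions, by 3.33. Cass4 was low in controls, 0.0711 to 0.548 CPM, and WT injured 1 (0.362 CPM) lay among the WT controls. Rab15, a small GTPase of endosomes, had 1.74, 0.698, 1.35 and 1.69 CPM in TLR3-KO injured libraries, against 0.142, 0.168, 0.148 and 0.207 CPM in TLR3-KO control libraries. It had 0.207, 0.718, 1.35 and 0.605 CPM in WT injured libraries, against 0.184, 0.114, 0.0985 and 0.137 CPM in WT control libraries. Its level was low in every library, and WT injured 1 lay just above the WT controls (log2 fold change 2.63, SE 0.34, edgeR adjusted p = 0.00273). The transcript 9030425E11Rik rose by 0.58 (SE 0.0892, edgeR adjusted p = 0.00899).

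Ffar2 and Nr1d1 had the lowest adjusted p of all shared genes, 0.00171 each in edgeR. Nr1d1 (chromosome 11, 98767932 to 98775333) had 42.2, 44.3, 33.1 and 35.8 CPM in TLR3-KO injured libraries, against 19.1, 23.2, 15 and 11.5 CPM in TLR3-KO control libraries. It had 32.7, 25.7, 30.2 and 37.7 CPM in WT injured libraries, against 10.7, 11.2, 8.27 and 13.4 CPM in WT control libraries. All 8 injured libraries lay above all 8 controls, WT injured 1 included, and the log2 fold change was 1.26 (SE 0.153).

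Ffar2, a receptor for short-chain fatty acids, is found on neutrophils and macrophages. It had 6.33, 4.74, 6.84 and 7.67 CPM in TLR3-KO injured libraries, against 2.2, 1.96, 3.29 and 2.48 CPM in TLR3-KO control libraries. Levels in WT mice were 3.52, 3.67, 4.98 and 3.52 CPM in injured libraries, against 1.14, 1.07, 2.04 and 1.64 CPM in control libraries. The groups did not overlap, and the log2 fold changes were 1.30 in TLR3-KO and 1.31 in WT mice. In all, 19 shared genes were higher in every injured library than in every control library; such a pattern was seen in 0.297% of all genes tested. The 19 also hold, named after their values were seen, Slfn5, Arid5a, which stabilises inflammatory mRNAs, Dennd4a and Il15ra, the receptor chain that presents interleukin 15.

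Of 19 clock genes tested, 2 were called higher and 1 lower, and the median log2 fold change was 0.01. The shares called over all genes tested were 1.17% higher and 0.779% lower. Dbp, an output transcription factor of the clock, rose by 0.73 (SE 0.171, edgeR adjusted p = 0.0368). Rora, an activator that binds the same DNA sites as REV-ERB alpha, fell by 0.46 on the log2 scale (edgeR adjusted p = 0.0383). The calls of these 2 genes rest on most of the libraries. Dbp kept its call in 3 of the 16 fits that leave out 1 library (WT injured 1, TLR3-KO control 3 or TLR3-KO injured 1), and Rora in 4 (WT control 4, WT injured 2, TLR3-KO control 1 or TLR3-KO control 2). Neither passed without TLR3-KO controls 1 to 3. Nr1d1 kept its call in all of these fits. Per2, a core repressor, had 0.77 and did not pass (edgeR adjusted p = 0.0794). Arntl and Clock, the core activators, had -0.05 and 0.25 and did not pass. The time of day of sampling is not stated, and it cannot be told apart from the groups.

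Socs2, a suppressor of cytokine receptor signalling, had 27, 28.9, 27 and 31.6 CPM in TLR3-KO injured libraries, against 20.6, 21.1, 18.6 and 19.1 CPM in TLR3-KO control libraries. In WT mice it had 33.2, 18.9, 22.4 and 20.9 CPM in injured libraries, against 11.6, 10.6, 10.7 and 11.4 CPM in control libraries. Within each genotype the groups did not overlap, and the log2 fold change was 0.72 (SE 0.125, edgeR adjusted p = 0.00928). It was the 1 called gene of 14 suppressors tested, where 1.17% of all genes tested were called higher. Il4ra, the interleukin 4 receptor, rose by 0.44, Itgam, an integrin of neutrophils and monocytes, by 1.57, and Klf2, a transcription factor that restrains inflammatory genes, by 0.88. Hspa1b, an inducible heat shock protein whose reads may be shared with its copy Hspa1a, rose by 1.63.

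**Figure D2:**
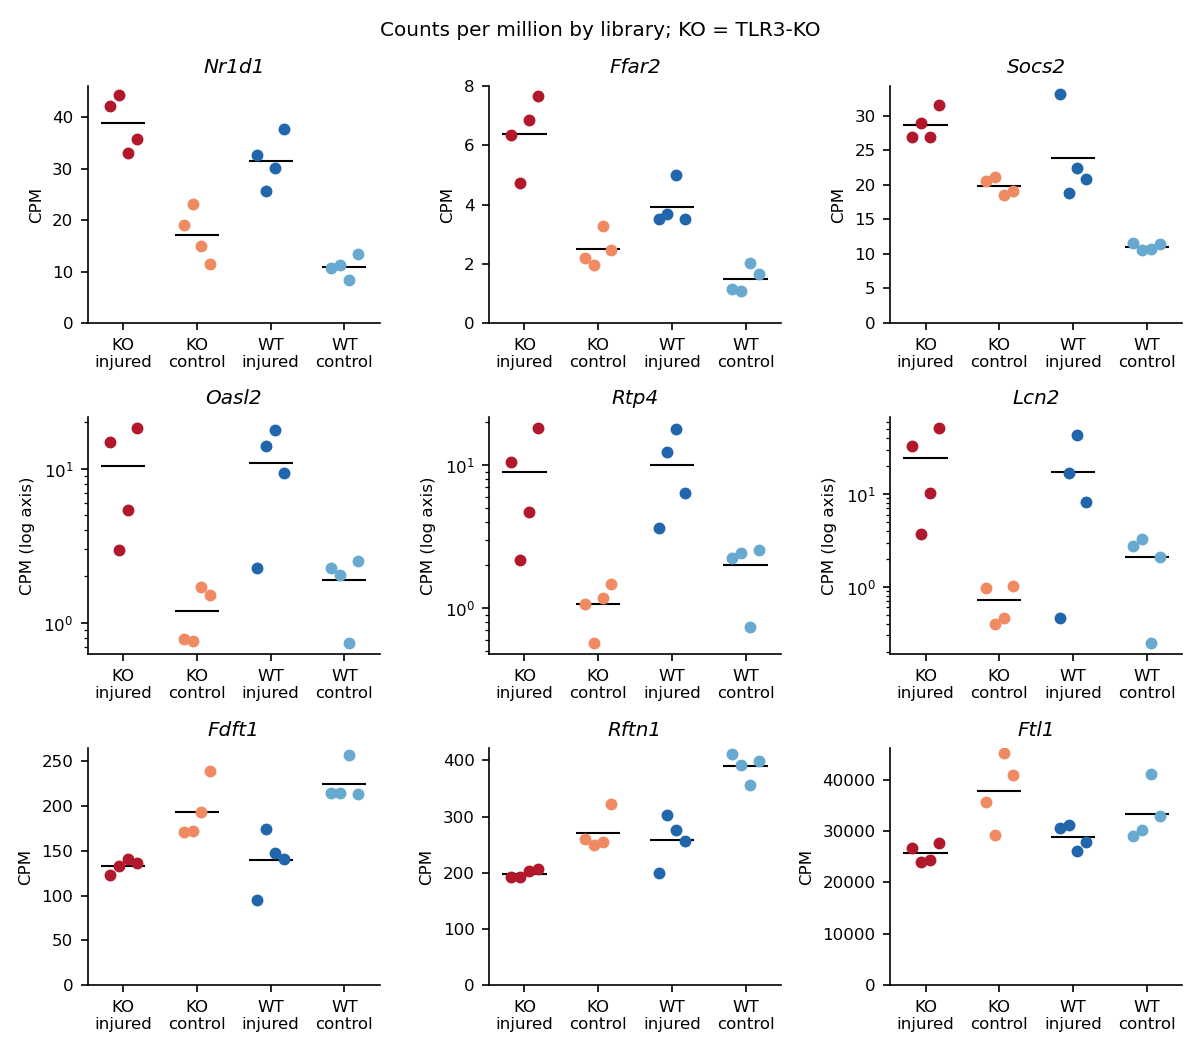
CPM of 9 genes by library, 4 points a group, with the group mean as a line; Oasl2, Rtp4 and Lcn2 have log axes and the others start at 0. Nr1d1 and Ffar2 separate all injured from all control libraries, while WT injured 1 lies with its controls for Lcn2.

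Genes that fell did so by less than the genes that rose. Of the 92, 0 were lower by 2-fold, and the log2 fold changes ran between -0.93 and -0.26 with a median of -0.43. Of the 143 that rose, 89 were at least 2-fold higher, and their median was 1.33. Levels differed too: 91 of the 92 reached 5 CPM in the injured or control mean, against 82 of the 143. Under 1 CPM in both means were 0 of the 92 and 19 of the 143. The part of level in the difference of fold changes was not tested. In all, 0.779% of genes tested were called lower.

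Cholesterol biosynthesis was the list with the most called lower genes. Of 25 genes tested, 13 were called lower and 0 higher. In the fit over both genotypes the median log2 fold change was -0.46 and all 25 values were negative. Taken singly, 20 of the 25 were lower in both genotypes, with medians of -0.36 in TLR3-KO and -0.64 in WT mice. Summed levels overlapped in TLR3-KO mice, 4090 to 4500 CPM in injured and 4440 to 5750 CPM in control libraries. They did not in WT mice, 3210 to 4970 CPM against 5650 to 6590 CPM. In pathway order, Acat2, the first step, fell by 0.76 on the log2 scale. Of the mevalonate enzymes, Pmvk fell by 0.63, Mvd by 0.41, Idi1 by 0.71 and Fdps, farnesyl diphosphate synthase, by 0.74. Acat2 kept its call in 6 of the 16 fits that leave out 1 library, Idi1 in 12 and Fdps in 16. Fdft1, squalene synthase and the first step committed to sterols, fell by 0.70, Sqle by 0.51 and Lss by 0.62. Later steps also fell, with Cyp51 at -0.46, Sc4mol at -0.53 and Sc5d at -0.61. Insig1, which holds SREBP in the endoplasmic reticulum, had -0.41, and Stard4, which carries cholesterol in the cytosol, had -0.51.

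Fdft1 had 123, 133, 141 and 137 CPM in TLR3-KO injured libraries, against 171, 172, 194 and 239 CPM in TLR3-KO control libraries. It had 95.6, 175, 148 and 141 CPM in WT injured libraries, against 215, 215, 257 and 214 CPM in WT control libraries. Within each genotype the groups did not overlap, and WT injured 1, which had the lowest interferon levels of its group, had the lowest Fdft1 (edgeR log2 fold change -0.70, SE 0.104, adjusted p = 0.00899). Hmgcs1, an early synthase of the pathway, had log2 fold changes of -0.17 in TLR3-KO mice and -0.76 in WT mice, and did not pass over both (edgeR adjusted p = 0.0578). Nsdhl had an adjusted p of 0.0305 in edgeR but lies on the X chromosome and was not counted. The sterol response element TCACNCCAC was in 0 of 10 promoters of called members, against 1.24% of all promoters; no match says only that these letters are not in these windows. Without TLR3-KO controls 1 to 3 the count of 13 was 3, and it was 8 without WT control 3, WT injured 4, TLR3-KO control 4 or TLR3-KO injured 1.

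**Figure D3:**
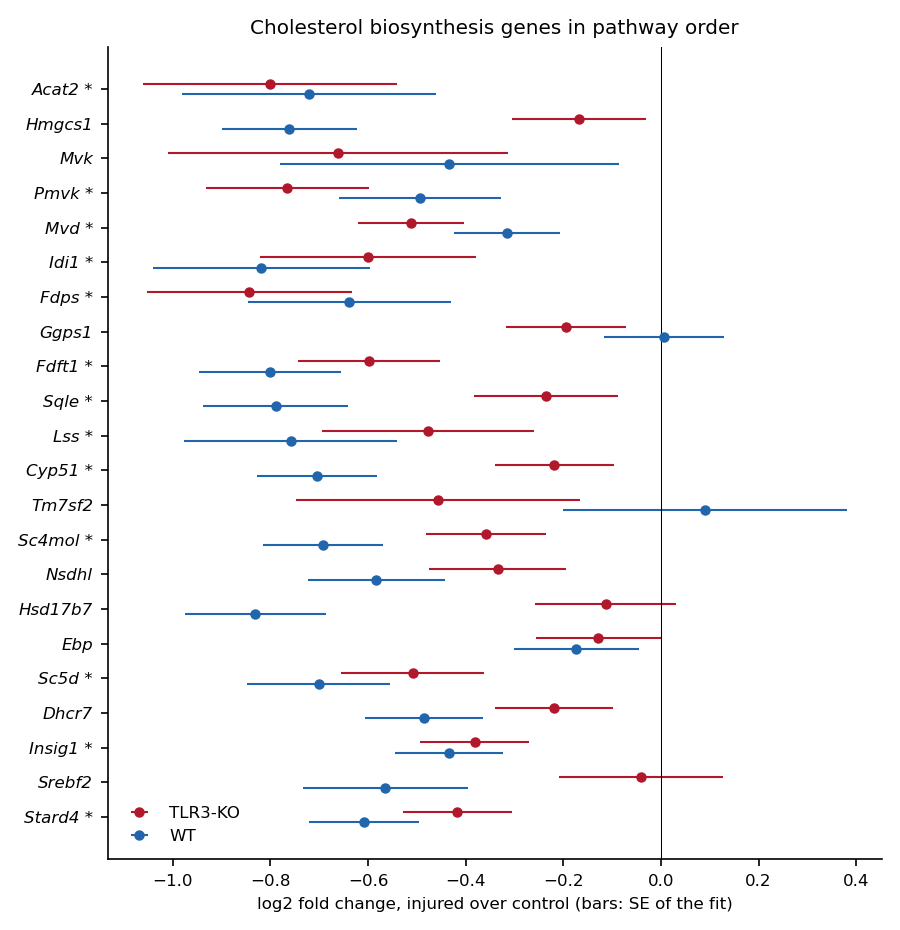
Log2 fold change of most of the cholesterol biosynthesis genes tested, injured over control, in TLR3-KO (red) and WT (blue) mice with the SE of the fit; stars mark shared genes. Starred genes lie below 0 in both genotypes by rule, because a shared gene must have the same sign in both.

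Both ferritin subunits, which store iron, fell. Ftl1 had 26700, 24000, 24300 and 27600 CPM in TLR3-KO injured libraries, against 35700, 29300, 45100 and 40900 CPM in TLR3-KO control libraries. It had 30500, 31100, 26100 and 27900 CPM in WT injured libraries, against 29000, 30200, 41100 and 33000 CPM in WT control libraries. The TLR3-KO groups did not overlap and the WT groups did; the log2 fold changes were -0.47 for Ftl1 and -0.47 for Fth1, and reads may be shared with ferritin pseudogenes. Ftl1 lost its call without WT control 3, WT injured 3, TLR3-KO injured 1 or TLR3-KO injured 4. Of 29 antioxidant genes, 2 were called lower and 0 higher: Gstm1, a glutathione transferase, at -0.66, and Gpx3, a glutathione peroxidase, at -0.57. Of 34 lysosome genes, 3 were called lower and 0 higher: the proteases Ctsb at -0.28 and Lgmn at -0.41, and the membrane protein Cd68 at -0.28. By comparison, 0.779% of all genes tested were called lower. Of the 16 fits that leave out 1 library, Ctsb kept its call in 2 (WT injured 1 or 2) and Cd68 in 3 (WT injured 1, 2 or 4). Lgmn lost its call without TLR3-KO injured 1 or 4. Without TLR3-KO controls 1 to 3, 0 members of the ferritin, antioxidant and lysosome lists were called lower.

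Rftn1, a protein of lipid rafts, had the lowest adjusted p among the genes that fell. It had 193, 192, 203 and 206 CPM in TLR3-KO injured libraries, against 260, 249, 254 and 322 CPM in TLR3-KO control libraries. Its level was 199, 303, 276 and 257 CPM in WT injured libraries, against 411, 392, 356 and 398 CPM in WT control libraries. The groups did not overlap within either genotype (log2 fold change -0.61, SE 0.0855, edgeR adjusted p = 0.0055). Stap1, a signalling adaptor, had the lowest fold change, -0.93 on the log2 scale. It had 19.5, 17.8, 14.6 and 19.3 CPM in TLR3-KO injured libraries, against 32, 26.3, 49.4 and 45.5 CPM in TLR3-KO control libraries. It had 28.6, 19.8, 19.8 and 17.5 CPM in WT injured libraries, against 31, 29.5, 38.4 and 30.6 CPM in WT control libraries. Neither genotype's groups overlapped. Cxcr1, a chemokine receptor, fell by 0.67 on the log2 scale, Celf4, an RNA-binding protein, by 0.81, Htra4, a serine protease, by 0.80 and Aacs, which activates acetoacetate for lipid synthesis, by 0.66. Htra4 kept its call in 3 of the 16 fits that leave out 1 library, and Aacs in 10. Tmcc1, a protein of the endoplasmic reticulum, fell by 0.69, Hspbap1 by 0.66 and Tmem151a by 0.54. Anxa11 and Klk1b11, named after their values were seen, were the 2 shared genes lower in every injured than in every control library, a pattern seen in 4 of all genes tested (0.0321%).

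Several pathways had 0 calls in either direction in edgeR: 28 cytokines and chemokines, 18 NF-kB subunits and inhibitors, 25 pattern recognition receptors, 13 MHC class II genes, 16 fatty acid synthesis genes and 42 cell cycle genes. At an unadjusted p below 0.05, 2 cytokines were higher and 2 lower, 1 NF-kB gene was higher, 2 receptors were higher and 3 lower, 5 MHC class II genes and 3 fatty acid genes were lower, and 4 cell cycle genes were higher and 1 lower. DESeq2 called 1 cytokine lower, 1 receptor higher and 1 lower, 1 fatty acid gene lower and 0 genes of the other lists. Their median log2 fold changes ran between -0.23 and 0.11. A lack of calls does not show a lack of response, since controls spread widely in some of these lists. Summed NF-kB levels were 3020, 2840, 1460 and 1930 CPM in WT controls 1 to 4. They were 2440, 2210, 1310 and 1770 CPM in TLR3-KO controls, and 1970 to 2450 CPM in injured libraries. For cell cycle genes the medians were 0.50 in TLR3-KO and -0.19 in WT mice. Markers of T cells (20 tested, median -0.50) and red cells (10 tested, median 0.81) also had 0 calls in edgeR and in DESeq2, with 3 T cell markers lower and 1 red cell marker higher at an unadjusted p below 0.05. The T cell median was -1.37 in TLR3-KO and 0.19 in WT mice, and the red cell median -0.54 in TLR3-KO and 2.14 in WT mice.

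Among the other lists, JAK-STAT receptors and kinases had 2 of 26 called higher, Csf3r, the receptor for the granulocyte growth factor G-CSF, and Il4ra. Monocyte and recruited macrophage markers had 2 of 22 called higher, Itgam and Ly6i. Complement had 1 of 14, again Itgam, and alternative activation 1 of 16, again Il4ra. Heat shock chaperones had 1 of 18, Hspa1b, and immediate early genes 1 of 24, Klf2. In these lists 0 members were called lower. By comparison, 1.17% of all genes tested were called higher and 0.779% lower, and a single call is not read as a result about its list. Of the 16 fits that leave out 1 library, Il4ra kept its call in 4 (WT control 1 or 2, WT injured 1 or 2), Csf3r in 6 (those 4, WT injured 4 and TLR3-KO injured 2) and Klf2 in 3 (WT control 4, WT injured 1 and TLR3-KO control 4). Hspa1b lost its call without WT injured 3, TLR3-KO control 3, TLR3-KO injured 3 or TLR3-KO injured 4, and Itgam without WT injured 3. Without TLR3-KO controls 1 to 3 the count was 0 in each of these lists. Iron handling had 1 of 19 called higher, Lcn2, whose call was lost without WT injured 3, and 2 lower, Fth1 and Ftl1. In edgeR 0 members were called for cholesterol efflux and lipid storage (2 higher and 9 lower at an unadjusted p below 0.05), the unfolded protein response (0 and 9), glycolysis and hypoxia (8 and 6), glucocorticoid-induced genes (3 and 0), matrix metalloproteinases (3 and 2) and oxidative phosphorylation (0 and 0). The lists for NK cells, B cells, dendritic cells, platelets, both epithelia and stroma also had 0 calls, with at most 1 member higher and 3 lower at an unadjusted p below 0.05 in any of them.

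**Figure D4:**
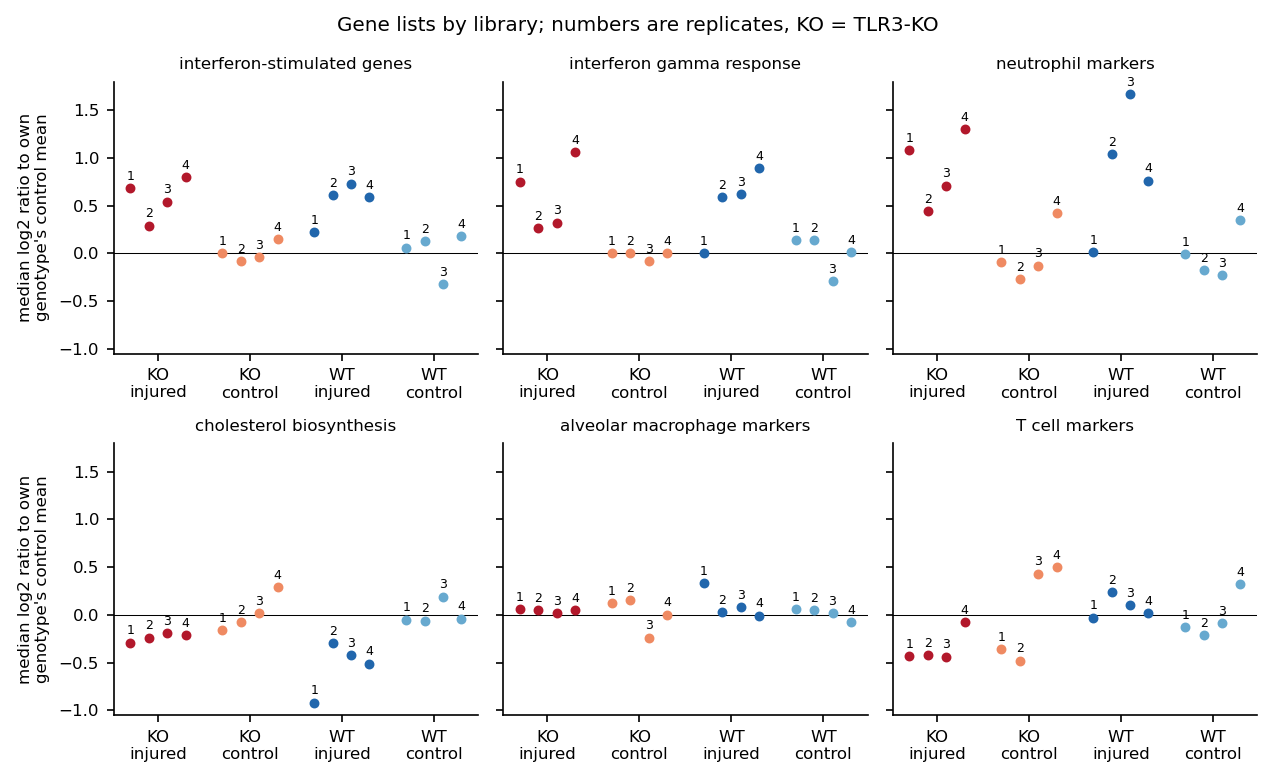
Median log2 ratio of 6 gene lists to the control mean of the same genotype, by library; numbers are replicates. The interferon lists and the neutrophil list are lowest in WT injured 1 and TLR3-KO injured 2 among injured libraries, and the cholesterol list is lowest in WT injured 1.

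Within each genotype, 136 genes passed in TLR3-KO mice (1.09% of genes tested) and 0 in WT mice in edgeR. In WT mice 10.7% of genes tested had an unadjusted p below 0.05, and in TLR3-KO mice 23.9%. Of the WT genes, 1279 lay outside X and Y. Of the 235 shared genes, 70 also passed in TLR3-KO mice on their own and 165 passed in neither genotype on its own. In edgeR 0 genes passed the test of the difference between genotypes, with 17.7% at an unadjusted p below 0.05, and the lowest adjusted p of that test among the shared genes was 0.237 in edgeR; this does not show that the genotypes responded alike. Of the genes with an unadjusted p below 0.05 in WT mice, 61.1% had the same sign in TLR3-KO mice. Of the 2850 such genes in TLR3-KO mice, 50.4% had the same sign in WT mice. Over all 11915 genes outside X and Y the share was 44.4%. Of 388 genes below 0.05 in both, 314 had the same sign (80.9%).

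Injured libraries differed in how many of the 143 genes stayed inside the range of their own controls: 2, 29, 7 and 3 in TLR3-KO injured 1 to 4, and 66, 9, 5 and 11 in WT injured 1 to 4. For the 92 genes that fell, the counts were 9, 12, 13 and 18 in TLR3-KO injured libraries and 15, 50, 23 and 32 in WT injured libraries. WT injured 1 had the most genes inside the control range among those that rose, and WT injured 2 among those that fell.

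**Figure D5:**
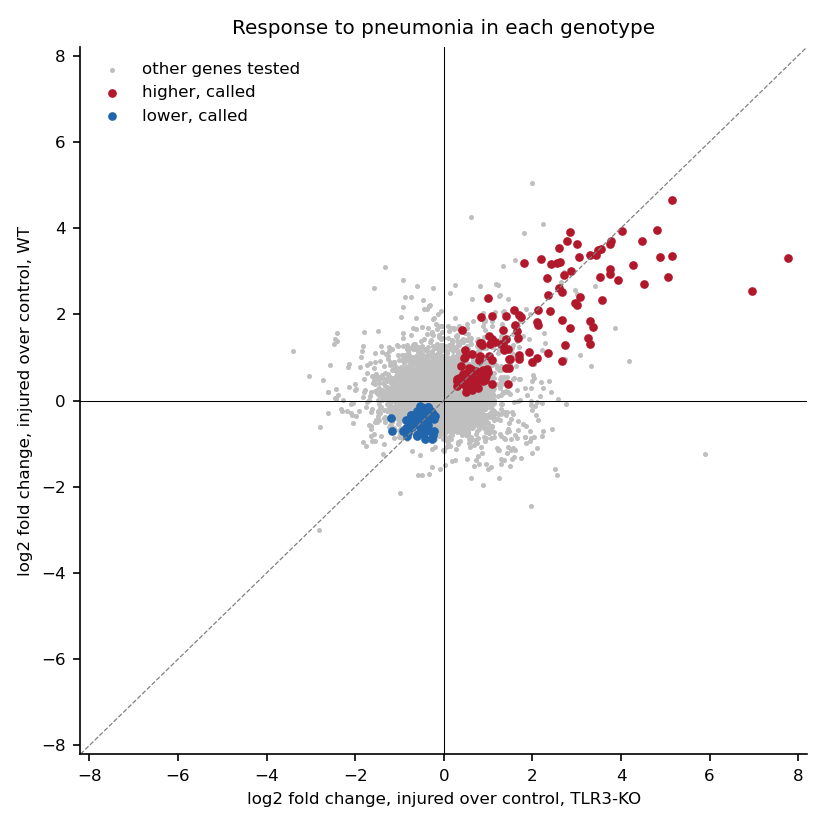
Log2 fold change, injured over control, of every gene tested in TLR3-KO (horizontal) and WT (vertical) mice; red and blue mark shared genes and the dashed line equal change. Shared genes lie by rule in the upper right and lower left, and the other genes spread over all 4 quadrants.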

How the data were processed

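Per the labels' protocols, RNA of lavage macrophages was made into TruSeq mRNA libraries with paired-end sequencing (50 bases). The submitters' processing notes list FastQC 0.11.3, TopHat2 2.0.13, Bowtie2 2.2.1, Cufflinks and Cuffdiff 2.1.1, with mm10 as the build. The table the authors deposited holds HTSeq counts per gene symbol, without normalization; the HTSeq version, strand setting and annotation are not given in the sources used here. Of 23159 symbols, 12455 passed edgeR's filter (minimum count 10) and 10704 did not. The counts were scaled by TMM and fitted with edgeR 4.0.16 (R 4.3.3) by robust quasi-likelihood, with genotype and state as terms; a second fit with 4 group coefficients gave each genotype's contrast and their difference. Benjamini-Hochberg adjustment ran over the 12455 genes, with a threshold of 0.05. CPM used the library totals, so a fold of CPM can differ from the fitted one. Total counts were 29667102 to 59640251; genes under about 1 CPM, 19 of the shared genes that rose, rest on few counts in some libraries. The fit was tested on simulated data. Named genes were the 12 highest and 12 lowest fold changes among shared genes of at least 5 CPM, the 5 lowest p-values in each direction and up to 5 members of each list; other called list members were named after their values were seen. The members and the 39 lists were chosen with earlier results of these data known. Robust dispersions were chosen to match earlier processing, and the fit without them was added after seeing the data. Some list members are counted in their lists but not reported singly here. Alternatives used DESeq2 1.42.0, limma 3.58.1, other scalings, filters, blocks and left-out libraries.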

Additional observations from a re-analysis of the deposited data

Results flagged for a closer look

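Among 228 combinations of 57 genes and 4 groups, 18 had 1 library far from the other 3 of its group; chance flags about 1 in 20. WT control 3 stood apart for 7 genes, with 2.24 CPM of Rsad2, 0.738 of Rtp4, 2.88 of Ifi47 and 7.93 of Gbp7 (below the others), and 38.4 of Stap1, 257 of Fdft1 and 225 of Aacs (above them). WT control 4 was high for Slfn1 (1.26 CPM), Mefv (3.86) and Slfn4 (16.6). TLR3-KO control 4 was high for Mefv (4.02 CPM), Rsad2 (9.31) and Rftn1 (322). WT injured 1 was low for Dbp (1.94 CPM), Rora (11.8) and Ifi47 (5.1). WT injured 3 was high for Ffar2 (4.98 CPM), and TLR3-KO injured 4 was high for Sc5d (146 CPM).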

How the results depend on the processing

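The main analysis gave 235 shared genes, 143 higher and 92 lower. Counts for the alternatives are of genes called outside X and Y, without the same-sign condition. No filter on low counts gave 153, with 50 lower, and DESeq2 gave 642, with 328 higher and 314 lower. Leaving out 1 library at a time gave 102 to 289 genes, 67 to 186 higher and 35 to 103 lower. Leaving out controls 1 and 2 of both genotypes gave 2573, with 1340 higher and 1233 lower; leaving out controls 3 and 4 gave 952, with 444 and 508. Without TLR3-KO controls 1, 2 and 3 there were 11, with 6 higher and 5 lower. The cause of these shifts was not tested. Upper-quartile scaling gave 151 higher and 79 lower. Pairing of injured with control libraries by replicate number differed between the genotypes. In WT mice, same-numbered injured and control libraries had correlations of -0.14, -0.38, -0.25 and -0.31. The same-numbered partner was the closest one for 0 of 8 WT libraries. In TLR3-KO mice the correlations were 0.31, 0.39, -0.17 and 0.41, and the partner was the closest one for 6 of 8. Whether the numbers mark true pairs in TLR3-KO mice was not tested. Between genotypes, same-numbered controls had 0.62 to 0.66 and same-numbered injured libraries -0.54 to 0.15. With the replicate number as a block shared by all groups there were 163 genes, 54 of them lower, and with the block within genotype 8, with 8 higher and 0 lower, so that 0 of the 13 cholesterol genes passed. None of the 61 named called genes reversed in any of the 30 alternatives, which reuse the libraries in which these genes were chosen. Nfkb1, not called in the main analysis, turned to a log2 fold change of 0.47 without controls 1 and 2.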
